A study of Rattus norvegicus with 6 samples.

Results

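The Rab set holds the small GTPases of the Rab family and the effectors and regulators that carry a Rab-derived name. Its members are the probe sets whose single symbol in the platform annotation is Rab followed by a digit, or begins with Rabgap, Rabgef, Rabif, Rabac, Rabep or Rph3a. That rule, which uses no signal, found 75 genes read by 125 probe sets, out of 14217 genes and 20826 probe sets with a single symbol. Of these, 56 genes encode Rab GTPases (97 probe sets) and 19 encode effectors or regulators (28 probe sets), among them the Rab11fip, Rab3gap, Rab3ip, Rab3il1 and Rab5if genes, whose symbols also begin with Rab and a digit. A further 5 probe sets list Rab1a, Rab1b or Rabif together with another symbol and are not members, so Rabif has no probe set here. All 6 arrays measured RNA of 832/13 INS-1, a clonal rat insulinoma line used as a β-cell model, in medium with 11 mM glucose and between passages 7 and 25. In 3 samples (knockdown cells) a nucleofection device delivered 68 pmol of siRNA against COUP-TFII, the nuclear receptor encoded by Nr2f2. In the other 3 (control cells) it delivered a scrambled siRNA, and both groups were cultured for 48 h. Each group has biological replicates numbered 1 to 3, and array values below are given in that order. The question was which RNAs differed when COUP-TFII was depleted.

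Rab GTPases switch between an inactive GDP-bound form, held in the cytosol by GDP dissociation inhibitor, and an active GTP-bound form on membranes, where they recruit effectors that move, tether and dock vesicles. Guanine nucleotide exchange factors (GEFs) load GTP and GTPase-activating proteins (GAPs) speed its hydrolysis. Each Rab marks particular membranes, and in β-cells Rab3 and Rab27 sit on insulin granules, where they act in docking and regulated secretion. Much of the control of a Rab lies in this cycle and in membrane targeting, which RNA levels do not show.

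A signal is the linear intensity that the authors computed for a probe set. The arrays carry 27 control probe sets for transcripts of Bacillus, a bacterium, and none of them read above 20.7. Dim here means that neither group's mean was above this signal. Of the 125 Rab probe sets, 21 were dim (16.8%), against 30.7% of probe sets with a single symbol and 37.5% of all 31042 tested. The other 104 read 65 of the 75 genes, and 10 genes had dim probe sets only. The siRNA target read low in the knockdown cells: Nr2f2 1389554_at had signals of 46.96, 27.7 and 23.8 in knockdown cells, against 182, 235 and 179 in control cells, with a log2 fold change of -2.65 and an adjusted p of 0.404 in unpaired limma and 0.0185 with the replicate number as a block. Of its other probe sets, 1370063_at had -1.71 (adjusted p with the block 0.316) and the dim 1395863_at -0.37. All 9 measured β-cell marker genes lay above the Bacillus controls on every array. Of the markers measured for other cell types, 2 of 2 for delta cells, 2 of 2 for duct cells, 4 of 4 for fibroblasts, 4 of 5 for acinar cells, 2 of 3 for leukocytes, 1 of 2 for endothelial cells and 0 of 1 for PP cells were dim. The acinar, leukocyte and endothelial lists each had 1 marker above the Bacillus controls on all arrays. Of 2 alpha-cell markers measured, 1 was above them on all arrays and 1 was dim. The dim one, Irx2, read 2.92 to 14.8 in knockdown cells and 0.78 to 10.24 in control cells. Glucagon (Gcg), an alpha-cell hormone, had signals of 8056, 4789 and 817 in knockdown cells, against 6313, 3397 and 394 in control cells. It was higher in knockdown cells within each replicate number (paired log2 differences 0.35, 0.50 and 1.05), with a log2 fold change of 0.63 (0.33 to 0.94 with the replicate number as a block in limma, unadjusted p = 0.00105, adjusted p = 0.566). The groups overlapped, and unpaired limma gave an unadjusted p of 0.571. Its part in the values below was not tested. Same-numbered arrays of the 2 groups deviated together, so the unpaired limma fit is given beside one with the replicate block. In RNA from whole cultures, fewer cells of a kind and less RNA per cell cannot be told apart.

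The 250 bases before the annotated start are printed for 4 members that kept the same direction within each replicate number or whose groups did not overlap. They are a choice from more such members. Rab37 had no matched promoter, and Rab7a, Rab15, Rab23 and Rab33a are not printed. The bases run 5′ to 3′ on the gene's strand, from RefSeq (GRCr8). Capitals mark GC boxes, the letters GGGCGG on either strand, which bind Sp1-family factors. The windows are chr5:128858841-128859090 (plus strand) for Rab3b, chr10:86166450-86166699 (minus strand) for Rab5c, chr14:73458178-73458427 (plus strand) for Rab28 and chr10:61300146-61300395 (minus strand) for Rph3al.
Rab3b: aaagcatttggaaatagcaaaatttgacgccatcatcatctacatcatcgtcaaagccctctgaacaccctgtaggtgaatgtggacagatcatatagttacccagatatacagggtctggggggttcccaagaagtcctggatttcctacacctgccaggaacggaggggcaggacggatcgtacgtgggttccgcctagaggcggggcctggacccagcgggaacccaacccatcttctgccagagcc
Rab5c: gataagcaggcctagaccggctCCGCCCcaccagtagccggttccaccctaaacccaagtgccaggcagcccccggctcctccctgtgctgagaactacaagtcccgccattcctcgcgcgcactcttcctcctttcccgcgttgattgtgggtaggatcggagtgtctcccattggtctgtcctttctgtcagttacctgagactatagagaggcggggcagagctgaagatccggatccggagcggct
Rab28: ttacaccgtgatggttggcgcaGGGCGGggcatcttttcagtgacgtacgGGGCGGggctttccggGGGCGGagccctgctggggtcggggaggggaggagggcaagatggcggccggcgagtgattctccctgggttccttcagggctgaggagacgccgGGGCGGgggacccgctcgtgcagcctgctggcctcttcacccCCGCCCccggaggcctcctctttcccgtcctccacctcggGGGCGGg
Rph3al: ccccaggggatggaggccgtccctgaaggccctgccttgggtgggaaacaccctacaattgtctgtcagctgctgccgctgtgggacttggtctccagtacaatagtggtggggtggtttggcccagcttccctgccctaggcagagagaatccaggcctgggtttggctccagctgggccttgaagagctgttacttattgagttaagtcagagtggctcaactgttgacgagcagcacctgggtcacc

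The Rab28 window held 6 GC boxes, the Rab5c window 1, and the Rab3b and Rph3al windows 0. COUP-TFII is known to bind direct repeats of the half-site AGGTCA with varied spacing. None of the 4 windows held AGGTCA on either strand. RefSeq promoters matched 60 of the 75 Rab genes, and in the same 250 bases AGGTCA lay in 6 of the 60 (10.0%), against 14.1% of 33469 promoters. Those 6 genes were Rab3c, Rab5a, Rab7b, Rab32, Rab33b and Rabgef1. The repeat AGGTCANAGGTCA, which contains AGGTCA, lay in 0 of the 60, against 0.0508% of all promoters. GGGCGG lay in 44 of the 60 (73.3%), against 30.5% of all promoters. The Rab side took 1 promoter for each matched gene. The 33469 were not limited to 1 for each gene or to genes on the array. These shares thus come from unlike sets, for AGGTCA as well. A match here is a description of letters and not a binding site.

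Across the Rab set no probe set passed Benjamini-Hochberg adjustment. At an adjusted p up to 0.05, limma called 0 of the 125 Rab probe sets in the unpaired fit and 0 with the replicate block, where the shares over all 31042 probe sets were 0% and 0.0161%. At an unadjusted p up to 0.05 the unpaired fit called 2 of 125 (1.6%, against 2.31% of all probe sets), Rab3b and a dim probe set of Rabgap1. With the replicate block it called 5 of 125 (4%, against 6.23% of all probe sets), which adds Rab37, Rab5c and Rab28. Among the 104 Rab probe sets that were not dim, the unpaired fit called 1 (0.962%, against 1.28% of all probe sets not dim) and the block 4 (3.85%, against 7.35%). All 4 read lower in the knockdown cells (3.85%, against 4.29% for lower alone). By probe set, none of these shares was above that of the whole array. By brightest probe set of a gene, the block called 4 of 75 (5.33%), all lower, against 7.12% of all genes in either direction and 4.1% for lower alone.

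Taking the brightest probe set of each gene, 42 of the 75 Rab genes read lower and 33 higher in knockdown cells, with a median log2 fold change of -0.016 (56.0% lower, against 50.6% and a median of -0.004 over all 14217 genes). Among the 65 genes that were not dim, log2 fold changes ran from -0.42 to 0.29. Of these, 57 (87.7%) lay within 0.25 of 0, against 78.2% of all genes not dim. On a linear scale a rise of 0.25 is 18.9%, and a fall of 0.25 is a smaller percentage. The median size was 0.093 on the log2 scale, against 0.122 over all genes not dim, beside a median standard error of 0.20. A difference of the median size is thus smaller than the standard error that 3 arrays a group give.

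**Figure D1:**
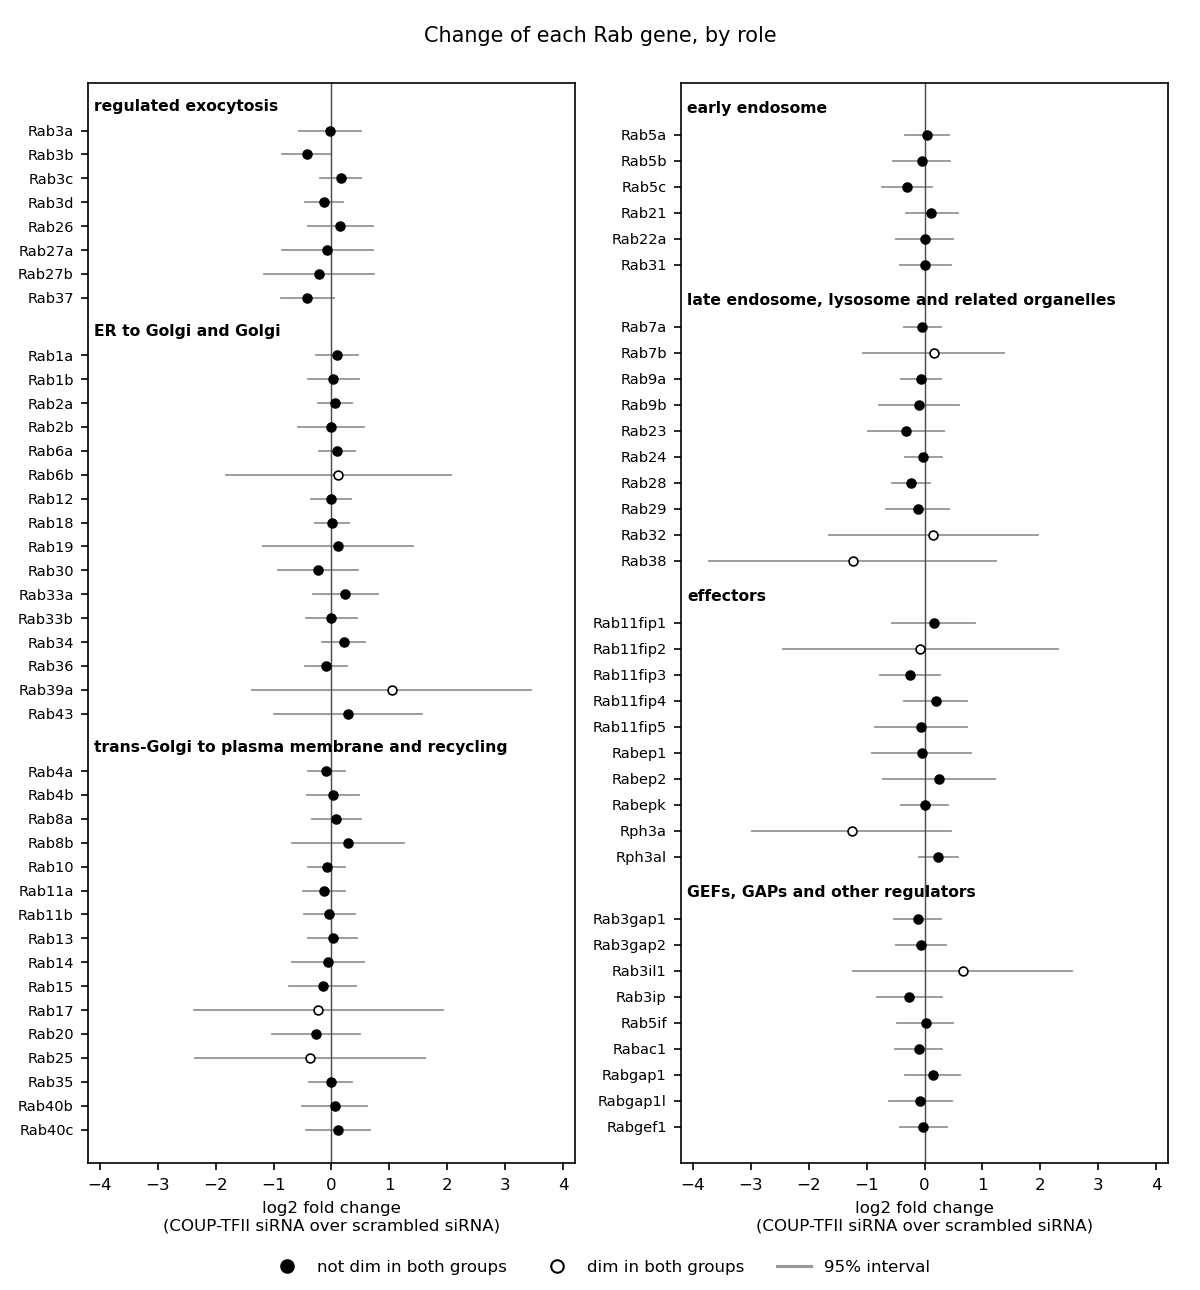
Log2 ratio of COUP-TFII siRNA over scrambled siRNA for the brightest probe set of each of the 75 Rab genes, grouped by role, with 95% intervals from unpaired limma; open circles mark probe sets dim in both groups. The 65 filled circles lie between -0.42 (Rab37 and Rab3b) and 0.29, and the wide intervals belong mostly to dim probe sets.

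Over the 8 GTPases of regulated exocytosis the median log2 fold change was -0.098, and 6 read lower in knockdown cells. The values furthest from 0 were those of Rab37 and Rab3b. Rab37, described on secretory granules of mouse mast cells, was read by 1392880_at with signals of 1389.8, 925 and 942 in knockdown cells, against 1759, 1303 and 1257 in control cells. Within each replicate number the knockdown array was the lower one, although the groups overlapped because both replicate 1 arrays read high. Its means were 1086 ± 264 in knockdown cells and 1439.6 ± 278 in control cells (SD, n = 3 each), a change of -25.1% on the geometric scale. The log2 fold change was -0.42 (95% interval -0.88 to 0.05, limma's unadjusted p = 0.0729), and with the replicate block its interval narrowed to -0.60 to -0.23 (unadjusted p = 0.000715, adjusted p = 0.465). The 3 paired log2 differences were -0.34, -0.49 and -0.42, and with 1 array left out the unpaired value ran from -0.61 to -0.26, which is the value without control replicate 1. An exact permutation test of the 6 arrays, which does not use the pairing, gave a two-sided p of 0.3, and 0.1 is the smallest it can give.

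Rab3b, a Rab3 isoform that takes part in hormone release from pituitary and neuroendocrine cells, was read by 1370061_at with signals of 255, 235 and 351 in knockdown cells, against 335, 364 and 417 in control cells. Again the knockdown array was the lower one of each replicate number, while the highest knockdown value, replicate 3, lay above the lowest control value, replicate 1. The means were 280.5 ± 62.2 in knockdown cells and 372 ± 41.2 in control cells (SD, n = 3 each), a change of -25.5%. Its log2 fold change of -0.42 (standard error 0.19) had an unadjusted p of 0.0494 in unpaired limma, and of 0.0532 to 0.132 in the methods' t-test, without the intensity trend, after quantile normalization or median centring, with log2(signal + 16) or without dim probe sets. In unpaired limma it was 0.00807 without knockdown replicate 3 and 0.0561 to 0.159 without any other single array. With the block the interval was -0.66 to -0.19 (unadjusted p = 0.00252, adjusted p = 0.678). The paired log2 differences were -0.40, -0.63 and -0.25, and the exact permutation test gave a two-sided p of 0.2.

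Rab3a, the main Rab3 isoform of synaptic vesicles and also on insulin granules, gave values near 0 of both signs. Its probe set 1369816_at had signals of 118, 118 and 144 in knockdown cells, against 115, 113 and 134 in control cells, a log2 fold change of 0.07 (-0.36 to 0.49). The other, 1391434_at, had signals of 268, 299 and 165 in knockdown cells, against 209, 262 and 257 in control cells, a log2 fold change of -0.03 (-0.56 to 0.51). Knockdown replicate 3 was the lowest of the 6 arrays for 1391434_at, and without it the log2 fold change was 0.23. Within replicate 3 the 2 probe sets differed in sign, with paired log2 differences of 0.10 for 1369816_at and -0.64 for 1391434_at.

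Rab27a, which tethers insulin granules at the plasma membrane through its effectors, was read by 3 probe sets. In 1377669_at the signals were 46.8, 33.6 and 48.4 in knockdown cells, against 56.6, 33.3 and 46.6 in control cells. In 1384852_at they were 40.7, 24.1 and 56.4 in knockdown cells, against 39.5, 27.2 and 50.2 in control cells. In 1387763_at they were 35.4, 8.31 and 25.5 in knockdown cells, against 29.2, 6.38 and 25.8 in control cells. The replicate 2 arrays of both groups were the 2 lowest in all 3 probe sets, whereas the groups overlapped in each. Log2 fold changes were -0.07 (-0.85 to 0.71), 0.01 (-0.96 to 0.99) and 0.21 (-1.58 to 2.01), and each changed sign when some single array was left out. The unadjusted p of limma was between 0.793 and 0.978, and between 0.677 and 0.968 with the block.

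The remaining Rabs of this role were Rab3c (0.16, -0.19 to 0.51; higher within all 3 replicate numbers), Rab3d (-0.13, -0.46 to 0.20), Rab26 (0.15, -0.41 to 0.71) and Rab27b (-0.21, -1.17 to 0.74), all log2 fold changes with 95% intervals. The intervals include 0 in each case, and those of Rab3d and Rab27b also include -0.42, the value of Rab37. Rab27b lay near the Bacillus controls, at 25.02 ± 2.83 in knockdown cells and 29.9 ± 10.2 in control cells (SD, n = 3 each).

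**Figure D2:**
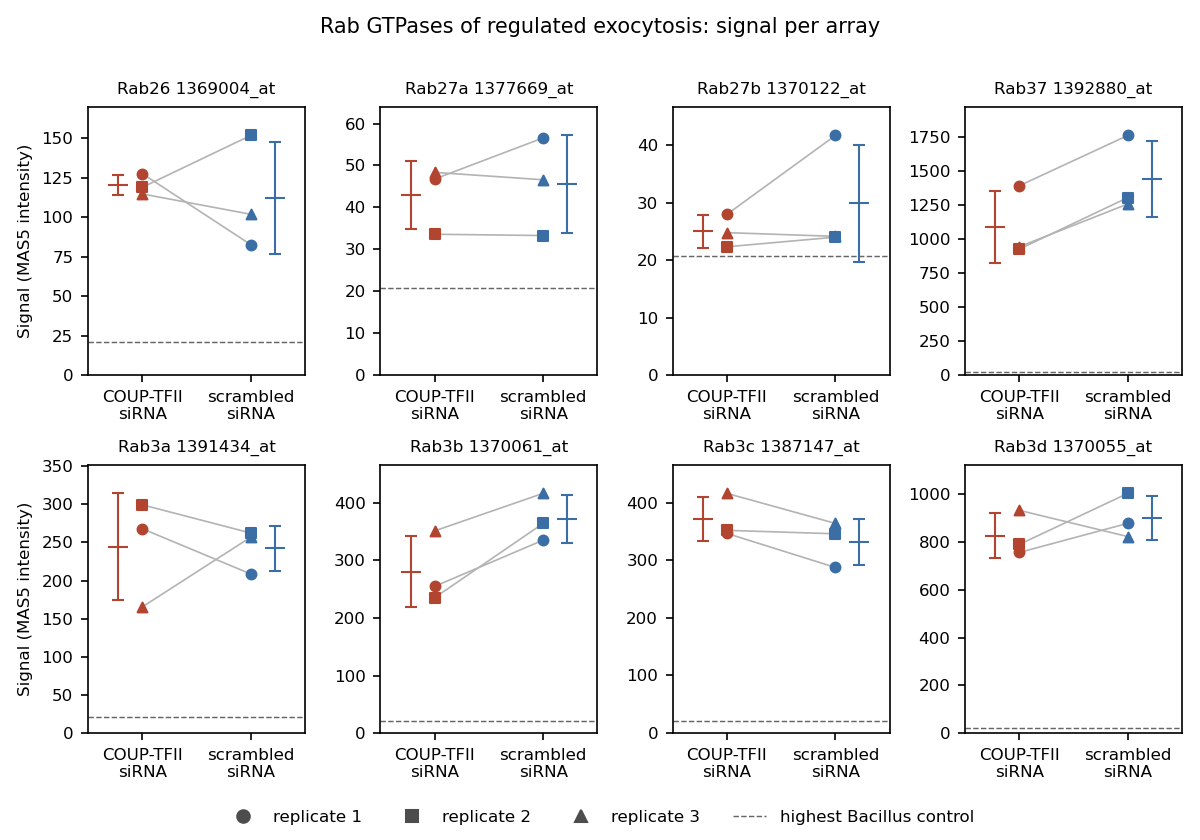
Signal (linear MAS5 intensity) on each array for the brightest probe set of the 8 exocytosis GTPases, COUP-TFII siRNA left and scrambled siRNA right; marker shape is the replicate number, grey lines join arrays of the same number, bars are mean ± SD, and a dashed line shows the top Bacillus control (20.7). The 3 lines of Rab37 and of Rab3b all run upward from knockdown to control cells, while those of Rab3a, Rab26 and Rab27a run both ways.

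Effectors of these Rabs were mixed. Rph3al (Noc2), an effector of Rab3 and Rab27 that endocrine granule secretion depends on in the mouse, was read by 1387176_at with signals of 290.1, 267 and 263 in knockdown cells, against 215, 258 and 224 in control cells. All 3 knockdown arrays lay above all 3 control arrays, with means of 273 ± 14.7 in knockdown cells and 232 ± 22.3 in control cells (SD, n = 3 each). Its log2 fold change was 0.24 (-0.10 to 0.57, limma's unadjusted p = 0.143). The block gave an unadjusted p of 0.054 and an adjusted p of 0.797. The exact permutation test gave a two-sided p of 0.1, its smallest, which follows from groups that do not overlap. Rph3a (rabphilin), the related effector of synaptic vesicles, was dim, with signals of 13.7, 2.59 and 6.14 in knockdown cells, against 12.6, 12.9 and 18.5 in control cells. Among the recycling-endosome effectors, the Rab11 family interacting proteins, Rab11fip3 had a log2 fold change of -0.25, Rab11fip4 0.19, Rab11fip1 0.16 and Rab11fip5 -0.06, and Rab11fip2 was dim. Over the 10 effector genes 5 read lower and 5 higher, with a median of -0.018.

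In all, the groups did not overlap for 5 of the 104 Rab probe sets that were not dim (4.81%, against 6.04% of all probe sets not dim), and for 6 of 125 with dim ones included (4.8%, against 6.69%). Higher in the knockdown cells were Rph3al, Rab33a and one of 2 probe sets of Rab7a, and lower were Rab15 and Rab23. Rab33a, a Golgi and vesicle Rab, had signals of 67.1, 68.04 and 72.02 in knockdown cells, against 65.9, 49.2 and 61.6 in control cells, a log2 fold change of 0.24 (-0.32 to 0.80). Rab7a, the Rab of late endosomes and lysosomes, had 781, 709 and 804 in knockdown cells, against 668, 691 and 658 in control cells in 1398838_at, a log2 fold change of 0.18 (-0.10 to 0.47). Its other probe set, 1387797_at, had a log2 fold change of -0.04 with overlapping groups. Rab15, of the recycling endosome, had 49.3, 51.1 and 52.3 in knockdown cells, against 56.4, 57.4 and 56.03 in control cells in 1373646_at, a log2 fold change of -0.15. Its other 2 probe sets gave 0.02 and 0.37. Rab23, which restrains Hedgehog signaling in the mouse, had 61.1, 62.5 and 38.4 in knockdown cells, against 66.7, 68.2 and 62.98 in control cells, a log2 fold change of -0.32 (-0.97 to 0.33), and its second probe set gave -0.33. Groups that do not overlap always give the exact permutation test its smallest two-sided p, 0.1, so that p adds nothing for these 5. Limma's adjusted p with the block was 0.797 or above. Rab33a, Rab7a, Rab15 and Rab23 are given because their groups did not overlap, after their values were seen.

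The dim probe set with separate groups was Rabgap1 1397425_at, which also had the lowest unadjusted p of the set in the unpaired fit (0.00277, adjusted p = 1). Its signals were 12.9, 12.2 and 8.80 in knockdown cells, against 1.57, 1.57 and 2.07 in control cells, all below the highest Bacillus control, so it was not above background in either group. The 2 brighter probe sets of Rabgap1, a GAP whose product acts on several Rabs, had log2 fold changes of 0.15 and 0.05.

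By brightest probe set, Rab5c had the lowest log2 fold change of the 6 early-endosome genes. Rab5 isoforms drive fusion of early endosomes, and Rab5c 1371836_at had signals of 178, 158 and 203 in knockdown cells, against 203, 195 and 269 in control cells. The knockdown array was the lower one within each replicate number (paired log2 differences -0.19, -0.31 and -0.41), and the groups overlapped. Its log2 fold change was -0.30 (-0.73 to 0.13, limma's unadjusted p = 0.143), and -0.54 to -0.06 with the block (unadjusted p = 0.0193, adjusted p = 0.777). Without control replicate 3, the highest array, the unpaired value was -0.16. The block's unadjusted p was above 0.05 without both arrays of replicate 2 (0.0718) or replicate 3 (0.0793). The sister isoforms Rab5a and Rab5b, which act at the same membrane, had log2 fold changes of 0.05 and -0.05 with intervals of -0.33 to 0.42 and -0.54 to 0.44. Over the 6 early-endosome genes the median was 0.006.

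Rab28, a divergent Rab of cilia whose loss causes a cone-rod dystrophy in people, was grouped with the late endosome genes. Its probe set 1368216_at had signals of 823, 961 and 872 in knockdown cells, against 1065, 1155 and 910.0 in control cells, so knockdown replicate 2 lay above control replicate 3. The paired log2 differences were -0.37, -0.27 and -0.06, with a log2 fold change of -0.23 (-0.56 to 0.09, limma's unadjusted p = 0.137). With the block the interval was -0.44 to -0.03 (unadjusted p = 0.0295, adjusted p = 0.797). That unadjusted p was 0.206 without both arrays of replicate 1 and 0.0934 without those of replicate 2. Of the 10 late endosome, lysosome and related genes 8 read lower (80.0%, against 50.6% of all genes). Their median log2 fold change was -0.080. By brightest probe set, the 7 that were not dim ran from -0.32 for Rab23 to -0.02 for Rab24. All their unpaired intervals include 0, while that of Rab28 with the block does not. The less bright probe set of Rab7a, 1398838_at, was at 0.18.

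The ER and Golgi Rabs read the other way by count, in a role list chosen with earlier results known. Of the 16, 12 were higher in knockdown cells and 4 lower (25.0%, against 50.6% of all genes). The median log2 fold change was 0.077. The 12 include Rab39a and Rab6b, which were dim, and Rab33b and Rab18, at 0.00 and 0.01. Rab34, which acts in lysosome positioning and ciliogenesis, was read by 2 probe sets. The first, 1375558_at, had signals of 58.5, 60.7 and 79.8 in knockdown cells, against 29.96, 68.6 and 42.1 in control cells, a log2 fold change of 0.57 (-0.24 to 1.38, limma's unadjusted p = 0.147), and control replicate 2 lay above 2 of the 3 knockdown arrays. It was 0.29 without control replicate 1 and 0.89 without control replicate 2. The brighter, 1376573_at, had 275, 299.9 and 248 in knockdown cells, against 237, 270.2 and 206 in control cells, higher in knockdown cells within all 3 replicate numbers (0.22, 0.15 and 0.27), with a log2 fold change of 0.21 (-0.16 to 0.58) and an unadjusted p of 0.0539 with the block. Rab1a and Rab2a, which act between ER and Golgi, had log2 fold changes of 0.09 (-0.27 to 0.45) and 0.06 (-0.24 to 0.36), and Rab6a, of the Golgi, 0.09 (-0.21 to 0.40). No ER or Golgi Rab had an unadjusted p up to 0.05 in limma, with or without the block.

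**Figure D3:**
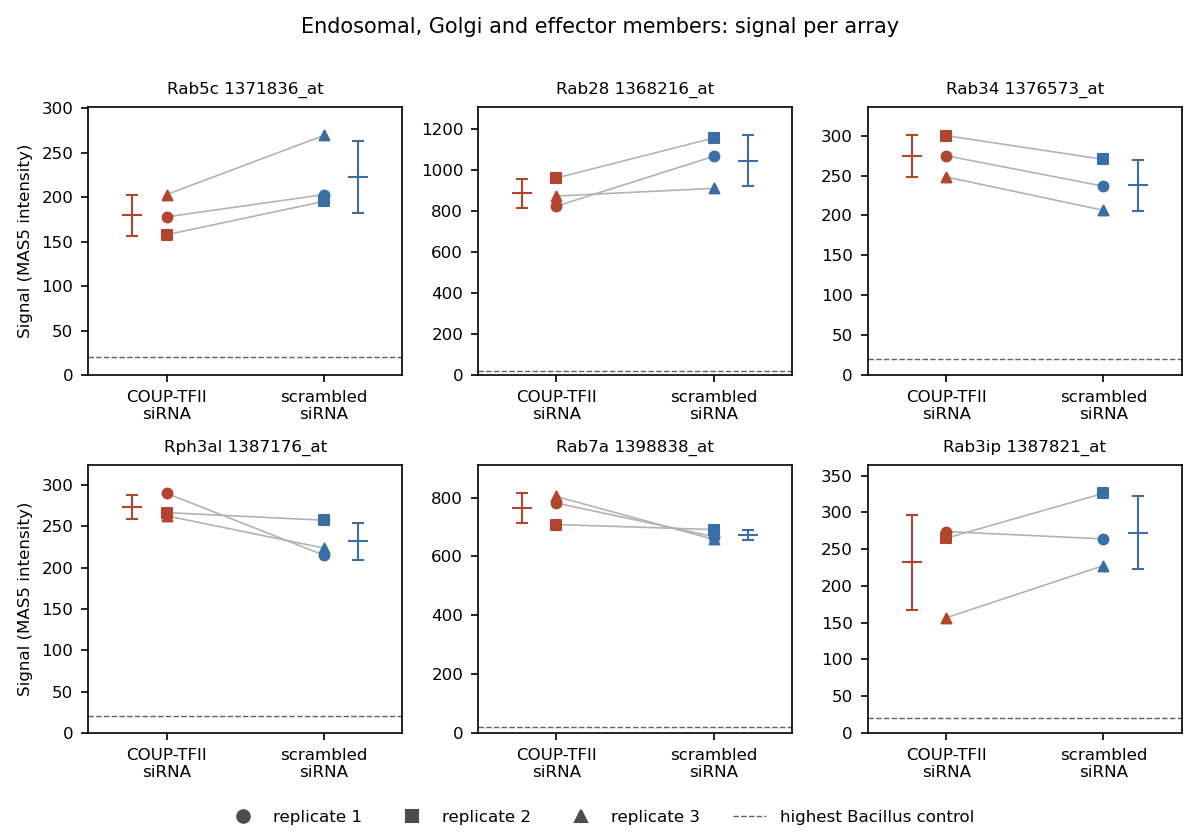
Signal (linear MAS5 intensity) on each array for 6 endosomal, Golgi and effector members, COUP-TFII siRNA left and scrambled siRNA right; markers are replicate numbers, grey lines join the same number, bars are mean ± SD, and a dashed line shows the top Bacillus control. Rab5c and Rab28 read lower and Rab34 1376573_at, Rph3al and Rab7a 1398838_at higher in knockdown cells within each replicate number, and Rab3ip runs both ways.

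For Rabs of the trans-Golgi to plasma membrane and recycling routes the median log2 fold change was -0.048, with 10 of 16 lower. Rab8a, Rab10, Rab11a and Rab14, all of which serve exocytic or recycling carriers, had log2 fold changes of 0.08 (-0.34 to 0.51), -0.08 (-0.40 to 0.24), -0.13 (-0.49 to 0.24) and -0.06 (-0.68 to 0.56). Among probe sets of this role that were not dim, the lowest unpaired unadjusted p was that of Rab20 1398422_at, 0.346 in limma. Its signals were 11.3, 12.7 and 40.8 in knockdown cells, against 34.1, 31.2 and 19.2 in control cells, with knockdown replicate 3 the highest of all 6 arrays and its log2 fold change at -0.60, and -0.26 in the brighter 1384148_at. Without knockdown replicate 3 the value of 1398422_at was -1.19. Its knockdown signals of 11.3 and 12.7 and its control signal of 19.2 lay below the highest Bacillus control. The knockdown side of the -1.19 thus rests only on signals that were not above background.

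The 9 regulators had a median of -0.061, with 6 lower. Rab3ip (rabin8), a GEF for Rab8, had 274, 265 and 157 in knockdown cells, against 264, 326 and 228 in control cells in 1387821_at, a log2 fold change of -0.26 (-0.82 to 0.30, limma's unadjusted p = 0.315). That value was 0.00 without knockdown replicate 3, the lowest array. The second probe set, 1391274_at, gave 0.15. The 2 subunits of the complex that regulates Rab3 and acts as GEF for Rab18, Rab3gap1 and Rab3gap2, had log2 fold changes of -0.12 (-0.52 to 0.28) and -0.06 (-0.49 to 0.37). Rabgef1 (rabex-5), the GEF of Rab5, had -0.02 (-0.42 to 0.39), and Rabac1, an acceptor of prenylated Rabs, -0.10 (-0.51 to 0.30).

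Probe sets of the same gene often differed in sign, near 0. Of the 29 Rab genes with at least 2 probe sets that were not dim, 11 had log2 fold changes of one sign and 18 of both, with a median range of 0.15 within a gene. The widest range, 0.96, was that of Rab31, an early-endosome Rab: 1373894_at had 0.01, and 1370780_at, near the Bacillus controls, -0.95. A range of 0.15 is larger than the median size of the fold changes.

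Replicate numbers were compared with the siRNA groups after the values were seen. Over the 104 Rab probe sets that were not dim, the median size of the log2 fold change between the siRNAs was 0.103, while the replicate 2 arrays differed from the other 4 by a median of 0.23 (0.141 and 0.285 over all probe sets not dim). Both replicate 2 arrays read below the other 4 for 13 of the 104 (12.5%, against 20.4% of all probe sets not dim) and above them for 24 (23.1%, against 15.9%). Both replicate 1 arrays read below the other 4 for 15 (14.4%, against 10.9%) and above for 11 (10.6%, against 8.58%), and both replicate 3 arrays below for 20 (19.2%, against 12.1%) and above for 12 (11.5%, against 16.3%), so each replicate number had such probe sets. All 3 probe sets of Rab27a were among the 13 below the others in replicate 2, at -0.56, -0.85 and -1.98 on the log2 scale for replicate 2 minus the others. So were all 3 of Rabep1 (rabaptin-5), an effector of Rab5 and Rab4, which is named here after its values were seen. Rabep1 1367980_at had signals of 385, 250.5 and 613 in knockdown cells, against 431, 252 and 597 in control cells, and 1367981_at had 206, 98.3 and 335 in knockdown cells, against 217, 94.7 and 267 in control cells. The third, 1374781_at, had 93.3, 55.3 and 80.7 in knockdown cells, against 89.2, 49.2 and 79.4 in control cells. Replicate 2 minus the others was -0.98, -1.38 and -0.71, whereas log2 fold changes between the siRNAs were -0.04, 0.10 and 0.08. In each of the 3 the replicate 2 arrays were the lowest 2, and the groups overlapped. The replicate 2 arrays also had the lowest median signals of all, 31.2 in knockdown and 29.9 in control cells, against 35.9 to 39.4 on the other 4, and the part of this in the Rab27a and Rabep1 values was not tested. The labels give no scan or hybridization batch.

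**Figure D4:**
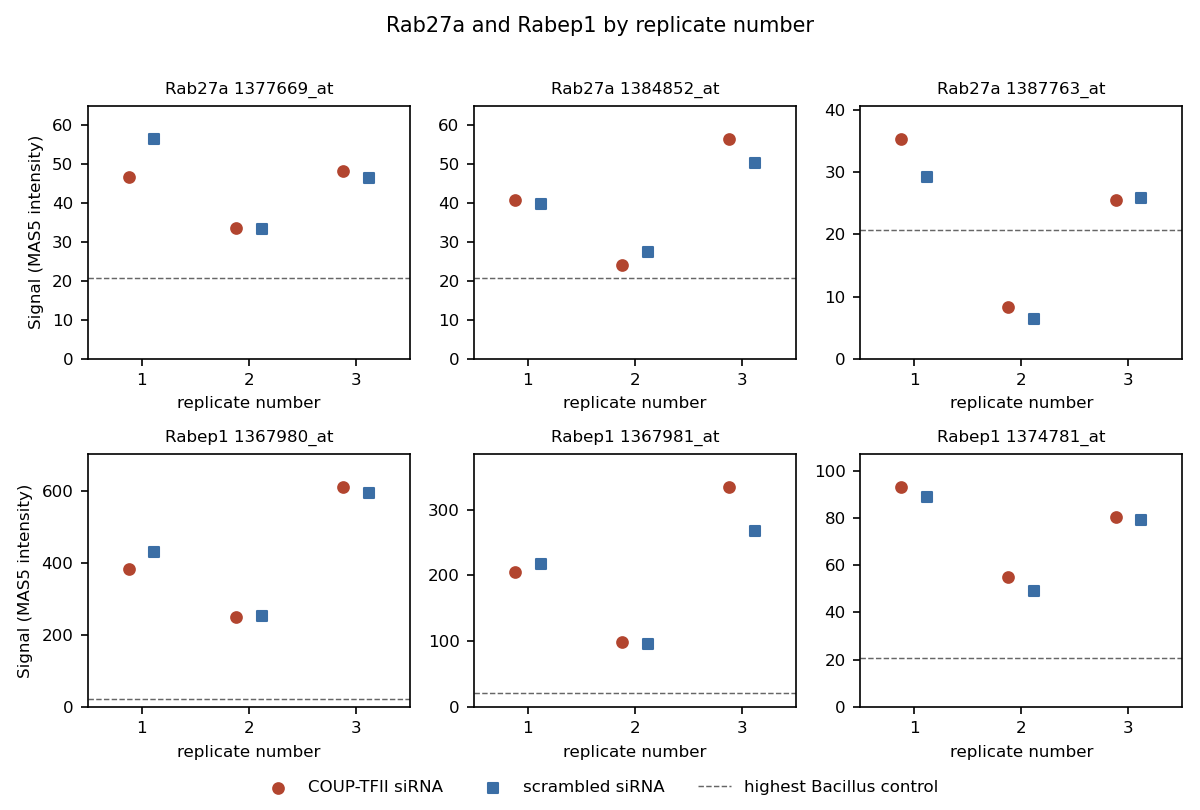
Signal (linear MAS5 intensity) of the 3 probe sets of Rab27a and the 3 of Rabep1 by replicate number, red circles COUP-TFII siRNA and blue squares scrambled siRNA; the dashed line is the top Bacillus control (20.7). In all 6 panels both replicate 2 arrays are the lowest, and the groups lie close together within a number.

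Direction within replicate numbers gave the same picture. Of the 104 probe sets that were not dim, 30 read in one direction in all 3 pairs (28.8%, against 30.1% of all probe sets not dim), 16 higher and 14 lower in knockdown cells. The Rabs that read lower in all 3 pairs included Rab37, Rab3b, Rab5c, Rab28 and Rab36, and those higher included Rab3c, Rab34 1376573_at, Rph3al, Rab21 and both probe sets of Rab2a. The 2 probe sets of Rab30 ran opposite ways, 1379606_at lower (-0.15, -0.45 and -0.10) and 1398640_at higher (0.32, 0.51 and 0.19) in all 3 pairs.

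Partners of the Rabs that lie outside the naming rule were taken from a list of 101 genes, of which 85 had a named probe set and 76 were not dim. Their median log2 fold change was -0.041, and 54 read lower and 31 higher (63.5% lower, against 50.6% of all genes). By brightest probe set, limma's unadjusted p was up to 0.05 for 1 of the 85 in the unpaired fit (against 2.02% of all genes) and for 9 with the block (against 7.12%), of which 7 were lower (against 4.1%). None passed adjustment in either fit. The 4 genes of GDP dissociation and prenylation, which keep Rabs soluble or attach their lipid anchors, ran from -0.09 (Rabggta, a subunit of the prenylating enzyme) to 0.01. Of 23 GEFs 18 read lower (78.3%, against 50.6% of all genes), with a median of -0.055. Rin2, a Rab5 GEF, was the 1 partner past the unpaired threshold. Its signals were 75.4, 82.9 and 62.2 in knockdown cells, against 102, 95.1 and 116 in control cells, without overlap, with a log2 fold change of -0.51 (limma's unadjusted p = 0.0457, adjusted p = 1, or 0.777 with the block). Dennd4b, a GEF of Rab10, also had no overlap, with a log2 fold change of -0.55. Its means were 57.5 ± 12.3 in knockdown cells and 82.9 ± 3.38 in control cells (SD, n = 3 each). Groups also did not overlap for other partners, such as Mon1a (-0.90) and Dennd6b (1.35), named after their values were seen. The share of partners without overlap was not computed, and over all probe sets not dim it was 6.04%.

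Of the 20 effectors at other membranes 16 read lower (80.0%, against 50.6% of all genes, median -0.111). The lowest unpaired p values among those not dim belonged to Micall2 (-0.35), an effector of Rab8 and Rab13, and Ocrl (-0.36, unadjusted p with the block 0.0117 in limma), a lipid phosphatase that binds several Rabs. TBC-domain GAPs, the main GAP family of Rabs, had 11 of 25 lower (44.0%, against 50.6% of all genes, median 0.069). Evi5 (0.01) and Sgsm1 (-0.11), which also carry a TBC domain, were counted among the effectors at other membranes instead. Tbc1d7, a subunit of the TSC complex, had 61.3, 41.2 and 70.6 in knockdown cells, against 81.2, 80.9 and 88.7 in control cells, a log2 fold change of -0.57, and Tbc1d8 had 774, 794 and 861 in knockdown cells, against 898, 948 and 1004 in control cells, a log2 fold change of -0.23, both without overlap. Effectors at secretory granules were 6 lower and 7 higher of 13 (median 0.045), and 5 of them were dim. Their lowest unpaired p values among those not dim belonged to Sytl1 (0.86), whose groups overlapped, and Mlph (-0.41). Sytl4 (granuphilin), which docks insulin granules with Rab27a, is named after its values were seen: 325, 334 and 724 in knockdown cells, against 271, 230.1 and 612 in control cells, higher in knockdown cells within each replicate number (0.26, 0.54 and 0.24). Its log2 fold change was 0.35, with limma's unadjusted p at 0.422, and 0.00555 with the block (adjusted p = 0.72).

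**Figure D5:**
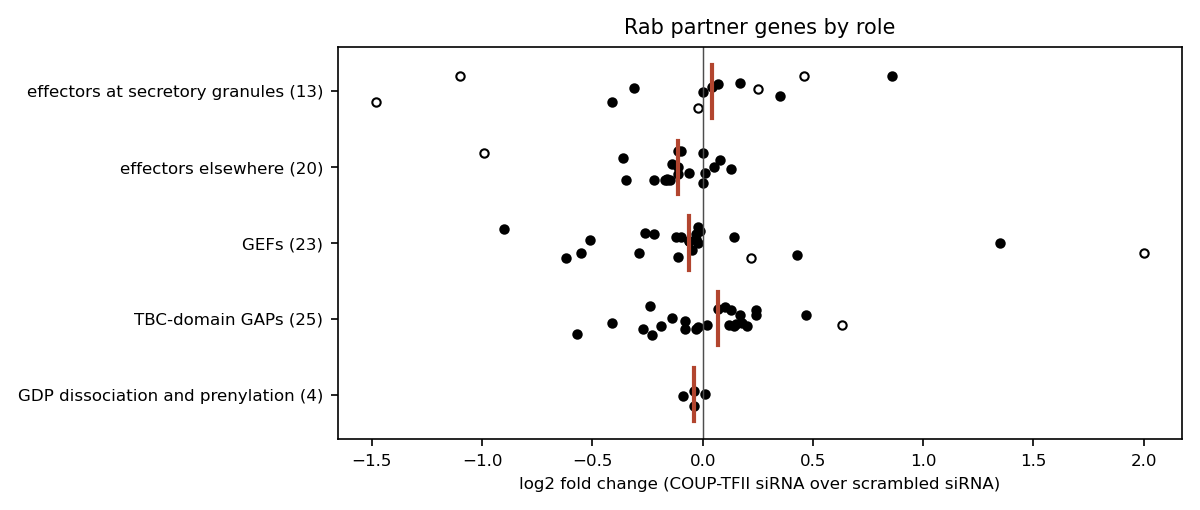
Log2 ratio of COUP-TFII siRNA over scrambled siRNA for the brightest probe set of 85 Rab partner genes by role; filled points are not dim, open points are dim in both groups, and the red bar is the median of the role. Medians lie between -0.111 (effectors elsewhere) and 0.069 (TBC-domain GAPs).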

How the data were processed

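RNA of 3 COUP-TFII siRNA and 3 scrambled siRNA samples was hybridized to Affymetrix rat arrays. The authors processed the scans with MAS5 (version not given in the sources used here), subtracted background and normalized with reference probes, and deposited linear intensities, 1 for each probe set on each array. No detection calls or genome build were used. Of 31099 probe sets, 57 controls were left out. The deposited intensities were floored at 1, which moved 1.85% to 5.49% of an array, and converted to log2 without renormalizing. The other 31042 were compared with limma 3.58.1 (lmFit, eBayes with an intensity trend) in R 4.3.3, unpaired and two-sided, and p-values were adjusted over all 31042 by Benjamini-Hochberg. Intervals are 95% intervals from limma. The authors' methods name an unpaired t-test on log2 values, which was run as an alternative.

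The labels number the replicates 1 to 3 in both groups. Deviations from the group means correlated at 0.111, 0.231 and 0.163 between same-numbered arrays and at -0.146 to -0.0104 between others. The numbers were treated as pairs, and a limma fit blocked on them stands beside the unpaired one. Beyond the word biological, no source says that replicates were separate cultures, so p-values measure the spread between these arrays, and the number of arrays limits the precision. Symbols came from the platform annotation (1 symbol for 20826 probe sets, several for 436, none for 9780). Per-array values are given for Rab3a and Rab27a, for the probe set with the lowest unadjusted p in each role among those not dim, for each one not dim with an unadjusted p up to 0.05 in either fit, and for genes whose probe sets disagree past that p, of which there were 0. Up to 2 partners by lowest p are named in each role, and a few others for the reason given there. Other named members are marked as chosen after their values were seen or are given by fold change. Members, role lists and partner lists were chosen with earlier results of these data known. Alternatives were other normalizations and low-signal treatments, a filter on dim probe sets, left-out arrays and another reading of the naming rule. The scripts were tested on simulated data. Python 3.11.15 with matplotlib 3.10.9 drew the figures.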

Additional observations from a re-analysis of the deposited data

How the results depend on the processing

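Under every alternative run, limma and the methods' t-test called 0 Rab probe sets at an adjusted p up to 0.05. At an unadjusted p up to 0.05 the count of 2 became 3 in the methods' t-test, 1 without the intensity trend, after quantile normalization, after median centring, with log2(signal + 16) and for Rab GTPases alone, 0 with dim probe sets left out, and 1 to 3 with 1 array left out, the lowest without scrambled siRNA replicate 1. With the replicate block it was 5. With alternatives chosen after seeing the data, it was 7 for the replicate block with quantile normalization, 5 for the block with log2(signal + 16) or without dim probe sets, and 6, 8 and 7 for the block without both arrays of replicate 1, 2 and 3. The 6 probe sets whose groups did not overlap became 11 to 20 with 1 array left out and 29, 22 and 31 without replicate 1, 2 and 3, since fewer arrays separate more easily. The median log2 fold change of -0.016 over the Rab genes became 0.008 when each gene took the median of its probe sets, -0.041 without replicate 3, and -0.059 to 0.030 with 1 array left out, beside an SD of 0.022 over the pairs. The 42 genes that read lower became 30 to 48.

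The sign of Rab37, Rab3b, Rab5c, Rab28, Rph3al and Rab34 1375558_at held in all 22 alternatives, but many of these could not turn it. The methods' t-test, the intensity trend, the dim filter and the block leave a fold change as it is. Each other block fit repeats the fold change of its unpaired counterpart. Signs turned for Rab3a and Rab27a, and the cause was not tested. Rab27a 1377669_at was -0.28 to 0.10 with 1 array left out, and 0.03 without replicate 1, with or without the block. Rab27a 1384852_at was -0.27 to 0.34 with 1 array left out, 0 without replicate 1 and -0.07 without replicate 3, with or without the block. Rab27a 1387763_at was -0.49 to 0.83, and Rab3a 1369816_at -0.03 to 0.14, with 1 array left out. Rab3a 1391434_at was -0.20 to 0.23 with 1 array left out, and 0.28 without replicate 3, with or without the block. Dim probe sets, with group means at or below 20.7, were not above background.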
